A study of Mus musculus with 162 samples.

Results

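Cytochrome P450 enzymes are haem proteins, most of them held in the endoplasmic reticulum, that use molecular oxygen and electrons passed on by P450 oxidoreductase to oxidise small fat-soluble molecules. Families 1 to 3 are best known from hepatocytes, where they clear drugs, pollutants and plant compounds, and their genes answer to ligand-activated receptors: the aryl hydrocarbon receptor for the Cyp1 genes, the constitutive androstane receptor for many Cyp2b and Cyp2c genes, and the pregnane X receptor for Cyp3a genes. Family 4 and several Cyp2c and Cyp2j enzymes act instead on fatty acids, arachidonic acid and leukotrienes. The genes described here are those of families 1 to 4 whose mouse symbol reads Cyp, a digit from 1 to 4, a letter, a number and at most 1 closing letter, with the Cyp4a genes left out. The rule found 72 genes among the 53686 rows of the count table: 3 of family 1, 48 of family 2, 9 of family 3 and 12 of family 4. Gene models were matched by symbol for 71 of them, and for Cyp2c44 through its synonym Cyp2c23.

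The data are mRNA sequencing libraries from wild-type male C57BL/6J mice aged 8 to 9 weeks that had no food for 0, 2, 8, 12, 18 or 22 h, with 3 mice at each time and the 0 h mice feeding freely. All 18 mice were killed at the same hour, early in the dark period, so the 8 and 12 h fasts began by day and the 18 and 22 h fasts also took in part of the night before. From each mouse 9 organs were sequenced, which gave 162 libraries: olfactory bulb (OB), telencephalon with diencephalon (BRN), cerebellum (CBL), brainstem (BST), stomach (STM), liver (LIV), interscapular brown fat (iBAT), perigonadal white fat (pgWAT) and subcutaneous white fat (psWAT). The study left out 5 libraries (BRN 8 h replicate 3, BRN 18 h replicate 1, STM 12 h replicate 3, iBAT 22 h replicate 1 and psWAT 22 h replicate 2), and the others, which hold 3.05 to 27.8 M counts each (M for mega), are used here. Levels are in CPM, counts scaled to a library of 1 M counts, with library sizes scaled by TMM factors, and a count of 0 allows a level of up to 3 counts, which is 0.107 to 1.1 CPM depending on the library; this limit covers counting error only.

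Marker genes show what each library holds. The summed level of 12 hepatocyte genes was 95400 to 121000 CPM in the LIV libraries, and that of 9 stomach epithelium genes was 88600 to 306000 CPM in STM. Some libraries stood apart. In pgWAT, the sum of 8 adipocyte genes was 7100 CPM in 22 h replicate 2 against 40300 to 86900 CPM in the others, and the hepatocyte sum, led by Alb, reached 5310 CPM in 18 h replicate 2 against a median of 35.5 CPM. In psWAT, the adipocyte sum ran from 891 to 57000 CPM while the sum of 8 lymphocyte genes ran from 251 to 3080 CPM, and 12 h replicate 3 held 4850 CPM of cerebellar neuron genes. STM 12 h replicate 2 had the highest hepatocyte sum of that organ, 3160 CPM, led by Apoa1, and the fed library STM 0 h replicate 3 followed with 2880 CPM. BRN 18 h replicate 2 was the least like the other BRN libraries, with a highest correlation to them of 0.897 over log2 levels; its cerebellar neuron sum, 194 CPM, was within that of the others. Sequencing lane followed fasting time in LIV, OB and STM: the 0 and 2 h libraries and 8 h replicates 1 and 2 shared a lane, and 8 h replicate 3 and all later libraries shared another, so lane and late fasting cannot be told apart in these 3 organs beyond what the 8 h group allows. In pgWAT too, the fed libraries were all on lane 5 and those of 18 and 22 h all on lane 6, and there the 12 h group holds both, replicate 1 on lane 5 and the others on lane 6. The kept iBAT libraries also differed in lane between times. They were on lanes 8, 8 and 5 at 0 h, 5, 5 and 4 at 2 h and 5, 8 and 8 at 8 h. At 12 h they were on lanes 5, 5 and 4, at 18 h on 8, 2 and 5 and at 22 h on 1 and 3. The part of lane in iBAT was not tested.

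Which members an organ expresses sets what can be tested in it. A gene was tested in an organ when at least 3 libraries held a level equal to 10 counts in a library of median depth. Of the 72 members, 54 were tested in at least 1 organ: 46 in LIV, 30 in STM, 27 in pgWAT, 18 in OB, 18 in psWAT, 17 in BRN, 17 in CBL, 16 in BST and 15 in iBAT. The 8 members tested in all 9 organs were Cyp2d22, Cyp2j6, Cyp2j9, Cyp2u1, Cyp4f13, Cyp4f16, Cyp4f17 and Cyp4v3, while 16 members, among them Cyp1a2, Cyp2c29 and Cyp2j5, were tested in LIV alone. The other 18 were tested nowhere; 15 of them had some counts, and Cyp2b13, Cyp3a16 and Cyp3a41a had 0 counts in every library. These 3 belong with 6 others to a list of 9 P450s known to be higher in the female liver, and the mice are male; of that list Cyp2a4, Cyp2c40 and Cyp2c69 were tested in LIV. Close copies also limit what uniquely placed reads can count: 82.9% of the 150-base windows of Cyp3a41a occur unchanged in Cyp3a41b, 5.79% of those of Cyp2a5 occur in Cyp2a4 and 5.62% of those of Cyp2d11 in Cyp2d10, while no such window of Cyp2c29, Cyp2j9, Cyp1a2, Cyp2e1, Cyp2f2 or Cyp2g1 is shared with another gene.

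The liver gave the largest share of its counts to P450 mRNA. The members together took 1.84% ± 0.21 (SD, n = 18) of all counts in LIV, 0.519% ± 0.202 (n = 18) in pgWAT, 0.135% ± 0.1 (n = 17) in psWAT, 0.0821% ± 0.0144 (n = 17) in STM and 0.0544% ± 0.0158 (n = 17) in iBAT. In the brain regions the share was smaller still, from 0.0168% ± 0.00109 (n = 16) in BRN to 0.0229% ± 0.002 (n = 18) in OB. By mean level, 40 of the 54 tested members were highest in LIV, and for 33 of these the lowest LIV library lay above every library of every other organ. The other 14 were spread over STM (Cyp2b19, Cyp2c65, Cyp2s1 and Cyp4f39), pgWAT (Cyp1b1, Cyp2j13 and Cyp4b1), iBAT (Cyp1a1 and Cyp2b10), BST (Cyp2j12 and Cyp4x1), psWAT (Cyp4f16 and Cyp4f18) and OB (Cyp2g1). These are descriptions of level, with no test between organs.

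Levels between genes are compared per kilobase of exon. In LIV the first was the ethanol and acetone oxidase Cyp2e1, at 2280 ± 592 CPM per kb (SD, n = 18). The coumarin hydroxylase Cyp2a5 followed at 562.9 ± 188.86, the pregnane X receptor target Cyp3a11 at 538 ± 94.5, Cyp3a25 at 477 ± 95.4, Cyp2f2 at 441 ± 83.4 and Cyp2d9 at 420 ± 61.3 CPM per kb. The arylamine oxidase Cyp1a2, at 379 to 1200 CPM per library, came next with a mean of 371 CPM per kb. Cyp2d10 at 293 ± 29.9, Cyp2a12 at 260 ± 22.5 and Cyp2d26 at 242 ± 21.3 CPM per kb completed the first 10. From Cyp2a5 to Cyp2d9 each neighbour in this order lay within 1 SD of the next, so their order is not clear of the spread between libraries, while Cyp2e1 lay above them by more than its SD.

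Each other organ had its own leading members. Cyp2e1 also led in the fats, at 2250 ± 938 CPM per kb in pgWAT (n = 18), 515 ± 488 in psWAT (n = 17) and 104.59 ± 53.8 in iBAT (n = 17). In pgWAT it was followed by Cyp2f2 at 21.1 ± 16.6 and the fatty acid hydroxylase Cyp4v3 at 19.2 ± 6.75 CPM per kb, in psWAT by Cyp4f18, a leukotriene hydroxylase of white blood cells, at 27.9 ± 15.4 and Cyp2f2 at 13 ± 13.1, and in iBAT by Cyp2b10 at 20.2 ± 16.3 and Cyp4b1 at 16.3 ± 2.83 CPM per kb. The stomach was led by the epithelial gene Cyp2s1 at 85.7 ± 23.5 CPM per kb (n = 17), before Cyp2c65 at 42.8 ± 21.6 and Cyp2f2 at 29.8 ± 20.8. The brain regions were led by Cyp2j, Cyp4f and Cyp2d genes at low level. In OB these were Cyp2j6 at 11.1 ± 1.73, Cyp2j9 at 8.56 ± 1.08 and Cyp4f15 at 7.41 ± 0.785 CPM per kb, and in BRN the same 3 genes at 8.07 ± 2.28, 6.66 ± 2.52 and 5.99 ± 1.95. In CBL they were Cyp2d22 at 10.2 ± 0.587, Cyp2j9 at 9.52 ± 1.29 and Cyp4f14 at 4.08 ± 0.437. In BST they were Cyp2j6 at 10.1 ± 1.03, Cyp2d22 at 8.82 ± 0.711 and Cyp2j9 at 8.28 ± 0.836.

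**Figure D1:**
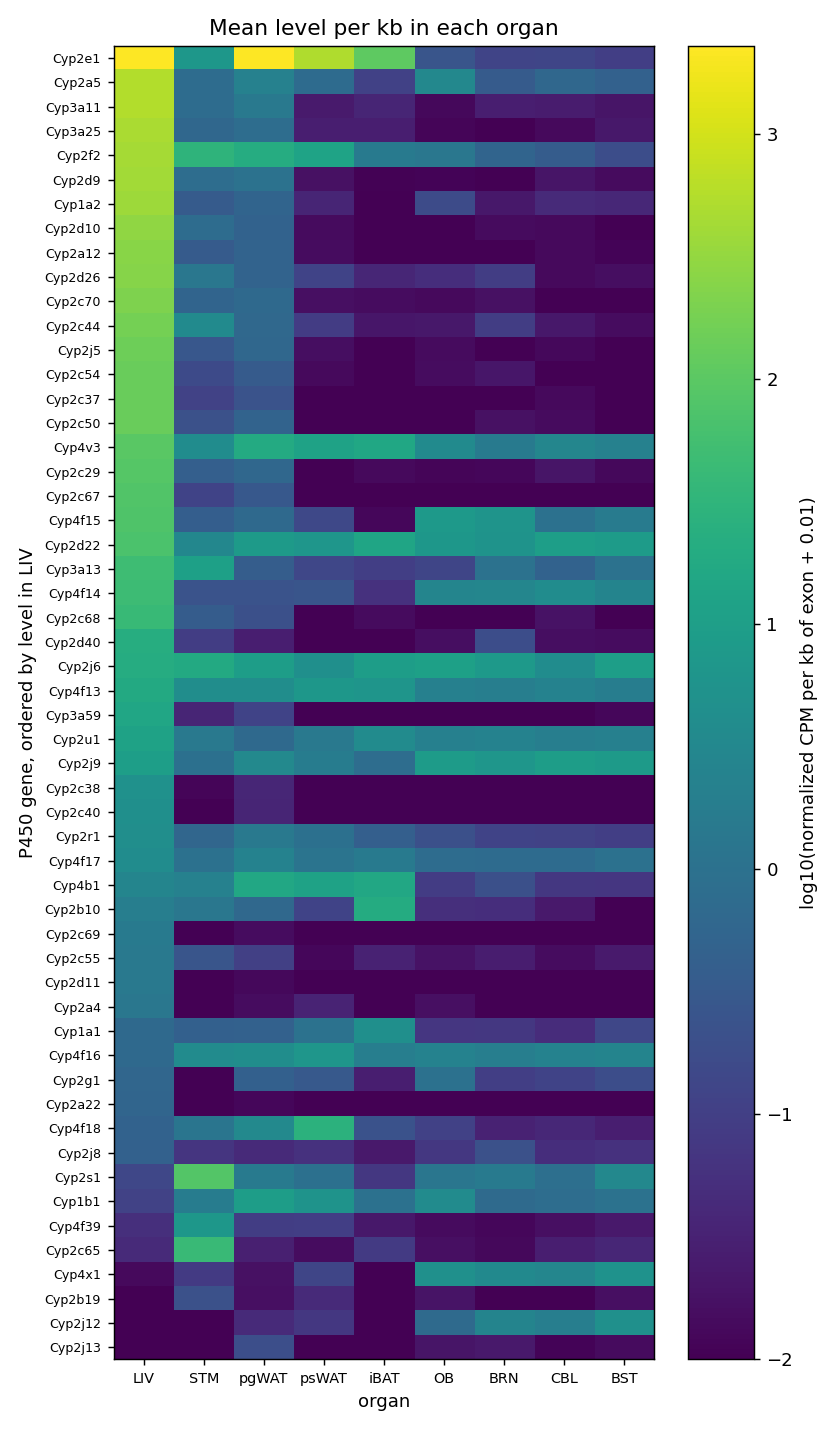
Mean level per kb of exon of the 54 members tested in at least 1 organ, 1 row per gene in the order of its LIV level and 1 column per organ, on a log10 colour scale of normalised CPM per kb. The LIV column is the brightest for 40 of the 54 genes, and Cyp2e1 is also bright in pgWAT, at 2250 CPM per kb.

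The same enzymes made up the liver's P450 mRNA at every fasting time, in shifting parts. The members took 1.97% ± 0.23 of all counts at 0 h, 1.74% ± 0.079 at 2 h, 1.84% ± 0.118 at 8 h, 1.6% ± 0.174 at 12 h, 1.75% ± 0.034 at 18 h and 2.11% ± 0.145 at 22 h (SD, n = 3 each), a description with no test. Of the summed member level per kb, Cyp2e1 held 33.8% ± 3.25 at 0 h, 25% ± 1.74 at 12 h and 33.6% ± 1.22 at 22 h. At 8 and 18 h it held 26.5% ± 4.51 and 29% ± 3.76. The Cyp3a genes held 12.6% ± 0.947 at 0 h, 16.6% ± 1.62 at 8 h and 14.1% ± 0.843 at 22 h, and the Cyp2a genes 9.32% ± 1.1 at 0 h and 13.2% ± 2.06 at 22 h. The Cyp1a genes held 5.99% ± 0.557 at 0 h, 3.45% ± 0.878 at 18 h and 4.69% ± 0.632 at 22 h. The dip of Cyp2e1 at 12 h and its return at 22 h are larger than the SD of the mice at those times.

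Fasting empties liver glycogen within hours and turns hepatocytes to fat oxidation and ketone production, and P450 genes are known to answer to hormones, nutrients and the clock that change with it. Drug-metabolising P450s are expressed mainly in the hepatocytes around the central vein, so many of them share a zone of the lobule. The first comparison asks which members differed in liver between the mice fasted for 18 and 22 h, taken as the mean of both times, and the fed mice. A gene is called here when its adjusted p from the edgeR quasi-likelihood F test, adjusted over all genes tested in the organ, was under 0.05 and its log2 fold change was beyond 1 in size. All comparisons with 0 h in an organ share the same 3 fed mice. A difference in bulk tissue cannot tell fewer cells of a type from less RNA per cell.

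Of the 46 members tested in LIV, 3 were called at 18 and 22 h, against 1.66% of all genes tested. Cyp2c29, an arachidonic acid epoxygenase known to answer to the constitutive androstane receptor, read 385.18, 424.08 and 417.74 CPM at 0 h, 189.21, 117.04 and 223.46 CPM at 18 h and 131.22, 160.25 and 256.97 CPM at 22 h. Every late library lay under every fed one, with 22 h replicate 3 the highest of the late libraries. Cyp2c29 fell by 1.19 ± 0.20 (SE) on the log2 scale (adjusted p = 0.00153), in 6 of 6 late libraries. At 2 h it read 302, 304 and 247 CPM, at 8 h 322, 456 and 363 CPM and at 12 h 177, 237 and 219 CPM, so the 2 h and the 12 h mice all lay under the fed ones while the 8 h mice overlapped with them.

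Cyp2j9, known as an arachidonic acid hydroxylase of the brain, went the other way. It read 22.1, 22.8 and 18.3 CPM at 0 h, 53.1, 38.4 and 52.9 CPM at 18 h and 45.6, 50.3 and 40.7 CPM at 22 h. The lowest late library was above the highest fed one, and the 12 h libraries, at 39.2, 44.8 and 47.8 CPM, sat among the late ones. Cyp2j9 rose by 1.15 ± 0.18 (adjusted p = 0.000673). The 2 h values of 29.4, 14.8 and 17.2 CPM lay on both sides of the fed ones, and the 8 h values of 30.5, 28.7 and 23.3 CPM lay above all of them.

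Cyp2d11, a low member of the Cyp2d cluster, was also called. It read 2.82, 2.79 and 5.07 CPM at 0 h, 1.96, 0.834 and 1.33 CPM at 18 h and 1.48, 2.18 and 1.74 CPM at 22 h, from 22 to 36 counts in the fed libraries and 6 to 19 in the late ones. The groups did not overlap, but 0 h replicate 3 stood well above the other fed mice. At 2 h it read 1.44, 1.41 and 3.07 CPM and at 8 h 2.08, 1.79 and 2.94 CPM. The 12 h values were 1.48, 2.73 and 4.16 CPM, so each of these times overlaps with both fed and late mice. Cyp2d11 fell by 1.15 ± 0.36 (adjusted p = 0.0452). This call was lost without any of 8 single libraries: the adjusted p was 0.0722, 0.0767 and 0.247 without 0 h replicate 1, 2 or 3, 0.0733 and 0.0655 without 18 h replicate 2 or 3, and 0.0775, 0.0597 and 0.0733 without 22 h replicate 1, 2 or 3. Without LIV 18 h replicate 1 the count of called members was 5 instead of 3, with Cyp2a4 and Cyp3a59 added. With lane as a covariate, which rests on the 8 h group alone, the count was 0: the log2 fold changes were -1.09 for Cyp2c29, -1.76 for Cyp2d11 and 1.5 for Cyp2j9, with adjusted p = 0.228, 0.239 and 0.071.

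**Figure D2:**
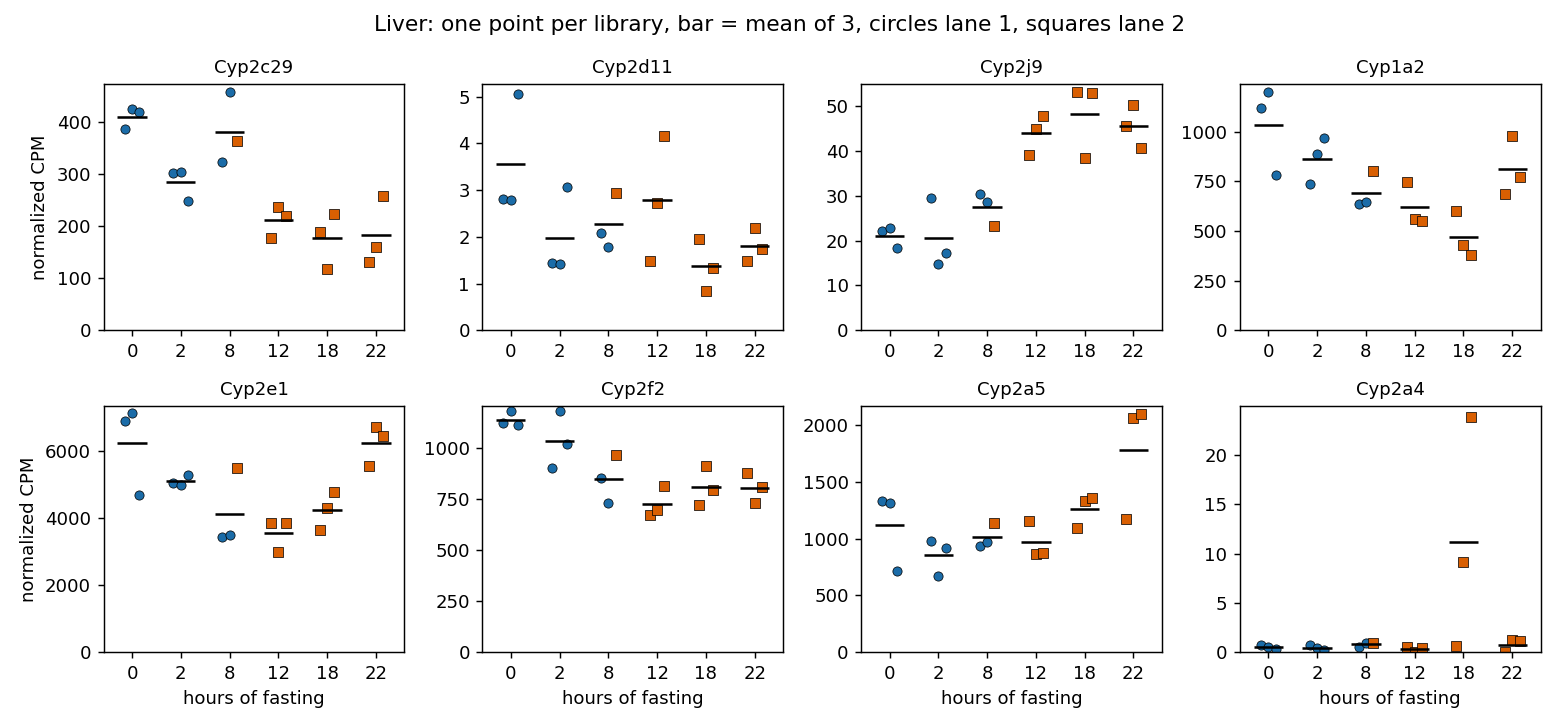
Normalised CPM of 8 members in every LIV library against hours of fasting, with a bar for the mean of 3 mice, circles for lane 1 and squares for lane 2. Cyp2c29 sits at 385 CPM or more in the fed mice and at 257 CPM or less at 18 and 22 h, and Cyp2j9 at 18.3 to 22.8 and 38.4 to 53.1 CPM.

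By the adjusted p alone, without the fold limit, 9 members differed at 18 and 22 h, 2 higher and 7 lower, against 10.6% of all genes tested. The 6 that join the called genes moved by less than a factor of 2. The arylamine oxidase Cyp1a2 read 1120, 1200 and 781 CPM at 0 h, 602, 430 and 379 CPM at 18 h and 688, 975 and 772 CPM at 22 h. The 18 h mice all lay under the fed ones, while at 22 h replicate 2 lay above 0 h replicate 3, so the groups overlap. Its change was -0.74 ± 0.16 (adjusted p = 0.00713), with -1.13 (0.0017) at 18 h alone and -0.34 (0.32) at 22 h alone. It did not pass with lane as a covariate, at -1.06 (0.132), or without 0 h replicate 2, at -0.62 (0.0611). The epoxygenase Cyp2c50 read 513.7, 511.58 and 465.16 CPM in the fed mice, 327.94, 210.18 and 192.71 CPM at 18 h and 403.28, 415.09 and 355.11 CPM at 22 h, without overlap, and changed by -0.69 ± 0.13 (adjusted p = 0.00251).

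The other 4 also kept fed and late mice apart. Cyp2f2, known for oxidising naphthalene, read 1120, 1180 and 1110 CPM in the fed mice and 719 to 910 CPM late, a change of -0.5 ± 0.11 (adjusted p = 0.00906), which did not pass with lane, at -0.79 (0.105), or without 0 h replicate 2, at -0.47 (0.0524). The fatty acid epoxygenase Cyp2j5 changed by -0.52 ± 0.12 (adjusted p = 0.0106) and the leukotriene and fatty acid hydroxylase Cyp4f14 by -0.57 ± 0.11 (adjusted p = 0.00259). Its neighbour on chromosome 17, Cyp4f13, changed by 0.42 ± 0.1 (adjusted p = 0.0118), so within the Cyp4f cluster members passed in both directions. These 6 genes are described here because they passed the adjusted p, and of them Cyp2c50, Cyp2j5, Cyp4f13 and Cyp4f14 were chosen after their values were seen. The values of these chosen genes with lane as a covariate or with a library left out are not given here.

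The most abundant liver P450s mostly did not pass. Cyp2e1 read 6910, 7150 and 4700 CPM at 0 h, 3660, 4290 and 4790 CPM at 18 h and 5550, 6730 and 6460 CPM at 22 h. The 22 h mice lie within the fed range and 2 of the 3 mice at 18 h lie under it, and the change over both times was -0.28 ± 0.15 (adjusted p = 0.256). It stood at -0.56 (0.0538) at 18 h alone, 0 (0.996) at 22 h alone, -0.94 (0.0982) with lane as a covariate and -0.45 to -0.17 on leaving out a library. Cyp2a5 read 1330, 1310 and 717 CPM at 0 h, 1090, 1330 and 1360 CPM at 18 h and 1170, 2060 and 2100 CPM at 22 h, with the highest values in 22 h replicates 2 and 3, and a change of 0.42 ± 0.21 (adjusted p = 0.205), or 0.17 to 0.67 under the alternatives. Cyp3a11, at 2660, 2530 and 2350 CPM in the fed mice and 3120, 3350 and 3820 CPM at 22 h, stood at 0.23 ± 0.11 (adjusted p = 0.195) over both late times, or 0.02 to 0.45 under the alternatives. Cyp3a25, Cyp2d9, Cyp2d10 and Cyp2a12 stood at 0.03, 0.01, 0.01 and 0.03, values so near 0 that several alternatives turned their sign, and Cyp2d26 at -0.22, or -0.43 to -0.13 under the alternatives.

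Over all 46 members the log2 fold changes ran from -1.19 to 2.45, 23 on each side of 0, with a median of -0.03 beside 0.01 over all genes tested. By subfamily the medians were -0.02 over 12 Cyp2c genes, -0.2 over 6 Cyp2d genes, 0.83 over 4 Cyp2a genes, 0.58 over 4 Cyp2j genes, -0.02 over 4 Cyp3a genes and 0.36 over 6 Cyp4f genes. The 2.45 is that of Cyp2a4, which also enters the Cyp2a median and rests on 66 and 250 counts in 18 h replicates 2 and 3 against 0 to 10 in the other libraries. Values within a cluster lay on both sides of 0: the Cyp2c genes, all on chromosome 19, ran from -1.19 for Cyp2c29 to 0.8 for Cyp2c69, and the Cyp2j genes on chromosome 4 from -0.52 for Cyp2j5 to 1.84 for Cyp2j8, which reads at most 2.22 CPM in any LIV library. Cyp2c69 and Cyp2j8 are named as the ends of these ranges, after their values were seen. Of all genes called in LIV, 48.1% were higher with TMM factors and 67.9% without them, and without them the Cyp2d11 call was lost at a log2 fold change of -1.07 (adjusted p = 0.0597).

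**Figure D3:**
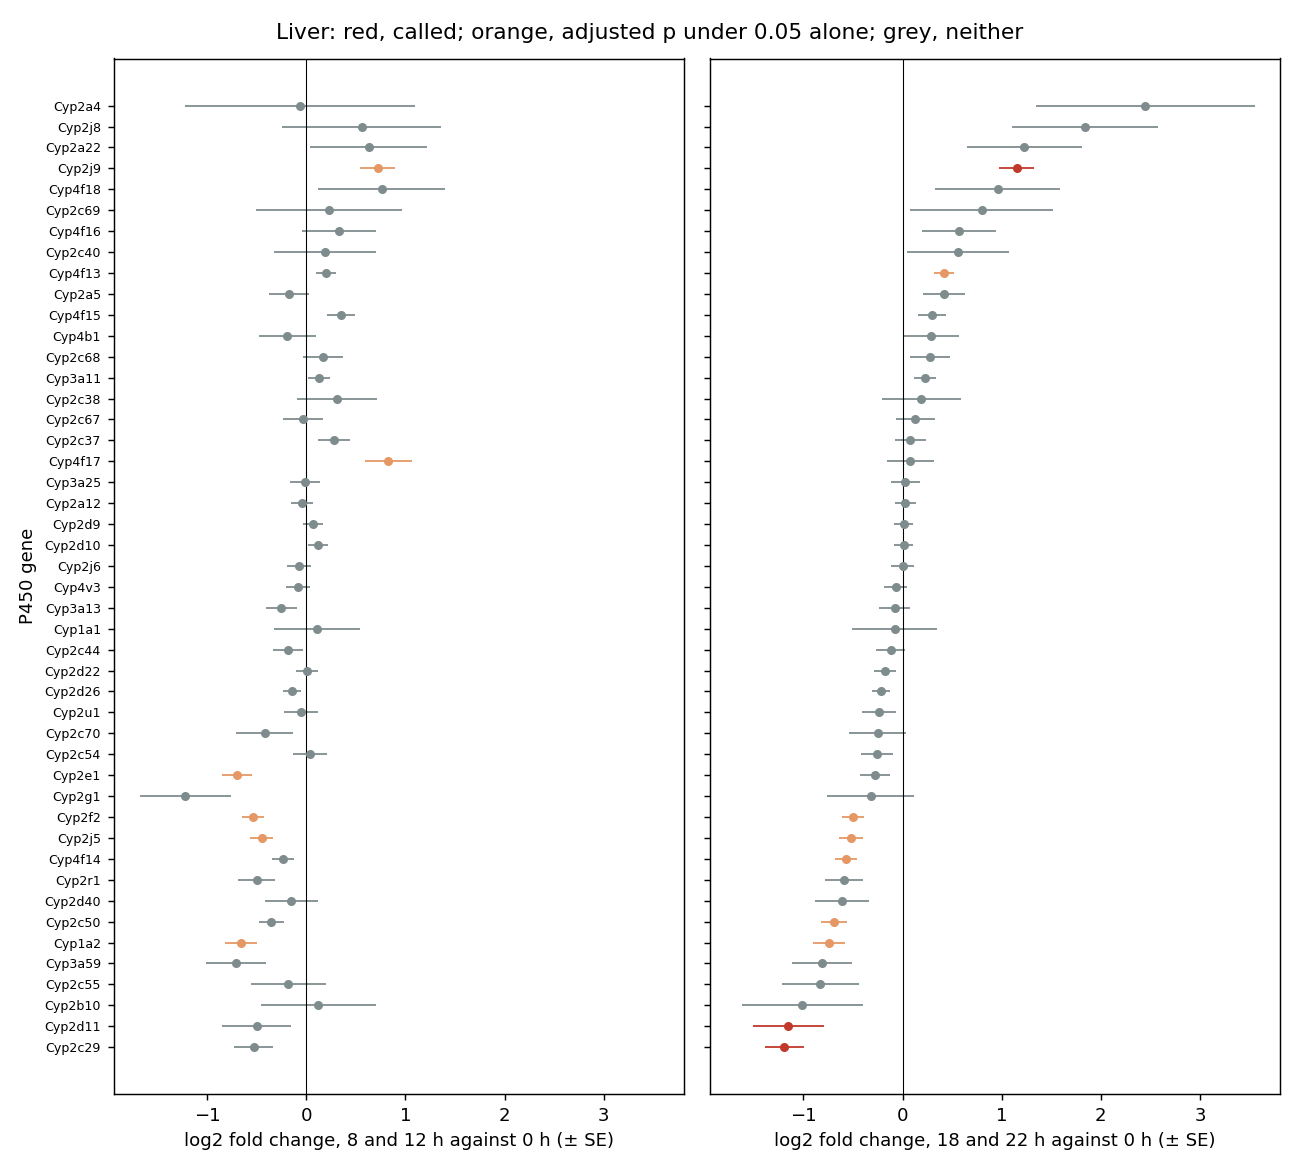
Log2 fold change with its SE of the 46 members tested in LIV at 8 and 12 h (left) and at 18 and 22 h (right) against 0 h, in 1 order on both sides, with called genes in red and those under the adjusted p alone in orange. The points lie on both sides of 0 at both times, and the 3 red ones are Cyp2c29 at -1.19, Cyp2d11 at -1.15 and Cyp2j9 at 1.15.

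Where along the lobule a P450 is known to be expressed gave a further view. The list of 8 pericentral P450s held 3 genes lower by adjusted p, Cyp1a2, Cyp2c29 and Cyp2c50, where 19.6% of the 46 members and 10.6% of all genes passed it in either direction. Its median change was -0.27, and Cyp2a5, Cyp2c37 and Cyp3a11 stood above 0 at 0.42, 0.08 and 0.23. The other members lower by adjusted p, Cyp2d11, Cyp2f2, Cyp2j5 and Cyp4f14, at -1.15, -0.5, -0.52 and -0.57, are on neither this list nor the periportal one below. Cyp2j9 and Cyp4f13 were higher. Of 10 pericentral genes other than P450s, 5 were lower by adjusted p: Aldh1a1 at -0.84 (adjusted p = 0.000221), Rgn at -0.76 (0.00119), Oat at -0.55 (0.024), Gulo at -0.47 (0.0162) and Glul at -0.42 (0.0264), and the list's median was -0.51. Their summed level was 4650, 5030 and 3980 CPM at 0 h, 2810, 2180 and 2210 CPM at 18 h and 3480, 3990 and 3590 CPM at 22 h. This order, lowest at 18 h with a partial return at 22 h, is also that of Cyp1a2 and Cyp2c50. Cyp2c29 did not share it, with 117.04 to 223.46 CPM at 18 h and 131.22 to 256.97 CPM at 22 h. The 10 periportal genes had a median of 0.03 and edgeR passed 0 of them by adjusted p, with 1 at an unadjusted p under 0.05 and 1 passing in DESeq2. Their summed level was 8510, 8630 and 3070 CPM at 0 h and 6560 to 13300 CPM late. The part that these zonal genes have in the P450 changes was not tested.

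The fasts of 8 and 12 h began by day and do not take in the night before. At 8 and 12 h against 0 h, edgeR called 0 of the 46 members against 0.813% of all genes, and DESeq2 called 0. At an unadjusted p under 0.05 stood 12 members. Counts at an unadjusted p are given throughout without the share over all genes, so they are a description only. By adjusted p alone 6 members differed, 2 higher and 4 lower, against 8.89% of all genes. Cyp2e1 was among them: it read 3430, 3490 and 5490 CPM at 8 h and 3870, 2980 and 3850 CPM at 12 h, under the lowest fed mouse in all but 8 h replicate 3. Its change was -0.7 ± 0.15 (adjusted p = 0.00864). That 8 h library was run on the later lane, and with lane as a covariate Cyp2e1 was the 1 member called.

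Cyp1a2, Cyp2f2 and Cyp2j5 were also lower, at -0.66, -0.54 and -0.45 (adjusted p = 0.0173, 0.00791 and 0.0267). Cyp2j9 was higher by 0.72 (adjusted p = 0.0169). Cyp4f17, a relative of the leukotriene hydroxylases, read 9.75, 7.22 and 12 CPM at 0 h, 16.3, 27.1 and 19.4 CPM at 8 h and 11.4, 10.3 and 20.7 CPM at 12 h, highest at 8 h, with a change of 0.83 ± 0.24 (adjusted p = 0.0347). The 4 genes Cyp1a2, Cyp2f2, Cyp2j5 and Cyp2j9 are under the adjusted p in both comparisons with 0 h, which share the fed mice. Of all genes called at 8 and 12 h, 55.3% were higher with TMM factors and 69.2% without. Leaving out 0 h replicate 3 or 12 h replicate 1 gave 1 called member each, Cyp4f17 and Cyp2g1.

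Late against earlier fasts does not use the fed mice. At 18 and 22 h against 8 and 12 h, edgeR called 0 members against 0.492% of all genes, and DESeq2 called 0. The 16 at an unadjusted p under 0.05, with no share over all genes beside them, are a description only. By adjusted p alone 3 were lower, against 2.7% of all genes: Cyp2c29 at -0.66 (adjusted p = 0.0452), Cyp4f14 at -0.35 (0.0454) and Cyp4f17 at -0.75 (0.04). Cyp2e1 stood 0.42 ± 0.13 higher, which did not pass (adjusted p = 0.0711), and so did Cyp2a5 at 0.6 ± 0.17 (0.0631). Without 18 h replicate 1, 1 member, Cyp2a4, was called. At 2 h against 0 h edgeR called 0 members against 0.057% of all genes, with 6 at an unadjusted p under 0.05 and 0 called by DESeq2.

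Each late time was also compared alone. At 18 h 5 members were called against 2.17% of all genes: Cyp1a2 at -1.13, Cyp2c50 at -1.03, Cyp2c29 at -1.21, Cyp2j9 at 1.2 and Cyp2a4 at 4.39. At 22 h 2 were called against 0.849% of all genes, Cyp2c29 at -1.16 and Cyp2j9 at 1.11. The joint test of the 6 times, which has no direction, passed 15 members against 16% of all genes: Cyp1a2, Cyp2a4, Cyp2a5, Cyp2c29, Cyp2c50, Cyp2c55, Cyp2d9, Cyp2e1, Cyp2f2, Cyp2j5, Cyp2j9, Cyp3a11, Cyp4f13, Cyp4f14 and Cyp4f17. That is 32.6% of the members tested, and the 4 genes Cyp2e1, Cyp2a5, Cyp3a11 and Cyp2d9, among the most abundant of the liver, pass this test and did not pass the adjusted p in the late comparison. Of these members Cyp2c55 and Cyp4f17 were chosen after their values were seen.

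Cyp2a4, a steroid hydroxylase known to be higher in the female liver, rests on a pair of libraries. Its counts were 66 in 18 h replicate 2 and 250 in 18 h replicate 3, and from 0 to 10 in the other 16 LIV libraries, 18 h replicate 1 included with 6. In level that is 9.17 and 23.8 CPM against at most 1.21 CPM elsewhere. Cyp2a5, its closest relative, read 1330 and 1360 CPM in the same libraries, within its range of 1170 to 2100 CPM at 22 h. The gene was chosen for description after its values were seen. The 2 other tested genes of the female-predominant list, Cyp2c40 and Cyp2c69, also named after their values were seen, stood at 0.56 (adjusted p = 0.528) and 0.8 (adjusted p = 0.524) at 18 and 22 h, where edgeR passed 0 of the 3, with 1 at an unadjusted p under 0.05 and 0 in DESeq2.

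P450 activity also depends on receptors, electron donors and haem. Of 13 tested receptors and partners 1 passed the adjusted p at 18 and 22 h: Ahr, the receptor that drives the Cyp1 genes, was lower, at -0.91 (adjusted p = 0.00414), and at -0.77 (0.0142) at 8 and 12 h. Its partner Arnt stood at -0.03 (0.91), the pregnane X receptor Nr1i2 at 0.51 (0.0587) and the androstane receptor Nr1i3 at 0.28 (0.503). Of 4 tested genes other than P450s that the aryl hydrocarbon receptor is known to drive, edgeR passed 0, with 0 at an unadjusted p under 0.05 and 0 in DESeq2, and their median was 0.12. The 6 tested P450s of a list known to answer to agonists of the androstane and pregnane X receptors had a median of -0.4. Cyp2c29 was the 1 that passed, where 19.6% of the members and 10.6% of all genes did. Cyp1a2, a target of the aryl hydrocarbon receptor and not on that list, passed as well, lower at -0.74 (0.00713). Its relative Cyp1a1, named after its values were seen, did not pass. Cyp1a1 read 2.57, 1.39 and 1.55 CPM at 0 h and 0.762 to 2.61 CPM late, with overlap.

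Among 6 electron donors Cyb5b was lower, at -0.7 (adjusted p = 0.000333), while P450 oxidoreductase, Por, stood at 0.36 (0.333). Of the haem genes, Alas1, the first step of haem synthesis, was higher by 0.65 (adjusted p = 0.0498), and Cpox was lower, at -0.58 (0.000648). Among 6 clock outputs known to act on P450 genes, Nr1d2 passed at 0.52 (0.042) and Dbp stood at 0.61 (0.435). Of the P450s outside families 1 to 4, 12 were tested and 3 were lower by adjusted p: Cyp7a1, the first step of bile acid synthesis, at -1.13 (0.042), the sterol demethylase Cyp51 at -0.88 (0.00738) and Cyp8b1 at -0.65 (0.0198). The 6 tested Cyp4a genes had a median of 0.5, and edgeR passed 0 of them, with 0 at an unadjusted p under 0.05 and 0 in DESeq2. In the same comparison 10.6% of all genes and 19.6% of the members passed the adjusted p. Genes of these lists other than Ahr, Nr1i2, Nr1i3, Por and Alas1 were chosen after their values were seen.

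Promoter windows of RefSeq, build GRCm38.p6, were at hand for 62 of the 72 members, 69 windows of 300 bases that run from 250 before to 50 after a gene's start. Motifs were searched on both strands unless stated. The core of the xenobiotic response element bound by the aryl hydrocarbon receptor, GCGTG, was in 14 member windows, 20.3%, against 32.4% of all 32851 windows. The E-box CACGTG was in 2, those of Cyp2j6 and Cyp4v3, which is 2.9% against 7.15%. No member window held the D-box TTATGTAA, the D-box TTACGTAA, or AGGTCA repeated after 1 or after 4 bases of any kind, and these were in 0.938%, 0.119%, 0.0396% and 0.0152% of all windows. The TATA box TATAAA, searched on the gene's strand and added after the data were seen, was in 22 member windows, 31.9%, against 8.32% of all; these include Cyp1a1, Cyp1a2, Cyp2a5, Cyp2c29, Cyp2d11, Cyp2e1 and Cyp3a11. A match is a description of letters, not a binding site.

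The windows of the 3 members called in liver are printed as examples, and whether motif goes with direction was not tested. Cyp4f14, lower by adjusted p, has a GCGTG and no TATA box. Cyp2e1, Cyp2a12 and Cyp3a11, which did not pass, have a TATA box. The lower genes Cyp2c29 (chr19:39286835-39287134, plus strand) and Cyp2d11 (chr15:82393973-82394272, minus strand) hold a TATA box, in capitals, and the higher gene Cyp2j9 (chr4:96591436-96591735, minus strand) holds none and has a GCGTG, in capitals.
Cyp2c29: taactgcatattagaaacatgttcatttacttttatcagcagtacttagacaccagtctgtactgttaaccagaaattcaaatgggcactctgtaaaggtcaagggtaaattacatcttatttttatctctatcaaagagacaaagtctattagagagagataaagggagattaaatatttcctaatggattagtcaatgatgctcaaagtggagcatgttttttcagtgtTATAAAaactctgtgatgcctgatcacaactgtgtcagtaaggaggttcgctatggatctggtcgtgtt
Cyp2d11: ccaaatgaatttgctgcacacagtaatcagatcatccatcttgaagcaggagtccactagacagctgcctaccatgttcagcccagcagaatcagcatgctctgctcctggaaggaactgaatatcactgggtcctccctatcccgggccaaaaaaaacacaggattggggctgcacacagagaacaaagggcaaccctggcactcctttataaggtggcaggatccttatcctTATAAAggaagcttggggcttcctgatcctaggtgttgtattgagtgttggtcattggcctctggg
Cyp2j9: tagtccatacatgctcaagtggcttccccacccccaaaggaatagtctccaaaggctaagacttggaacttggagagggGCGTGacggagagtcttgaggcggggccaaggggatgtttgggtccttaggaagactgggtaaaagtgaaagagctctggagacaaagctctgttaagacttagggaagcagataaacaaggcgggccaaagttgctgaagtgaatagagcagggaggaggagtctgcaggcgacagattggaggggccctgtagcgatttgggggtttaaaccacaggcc

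The olfactory bulb receives the axons of the olfactory sensory neurons, whose cell bodies lie in the nasal mucosa. That mucosa is known for high P450 expression, with Cyp2a5, Cyp2f2 and the steroid hydroxylase Cyp2g1 among its main members. The comparison asks whether the few P450s detected in the bulb differed after 18 and 22 h. Of the 18 members tested in OB 3 were called, all lower, against 0.173% of all genes tested, and they are these same 3 genes. Most calls in OB had this direction: of all 29 genes called, 25 were lower and 4 higher.

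Cyp2a5 read 12.1, 18 and 12.8 CPM at 0 h, 11, 10.9 and 5.85 CPM at 2 h and 6.75, 14.8 and 7.66 CPM at 8 h, and then 0.59, 1.65 and 4.13 CPM at 12 h, 2.96, 4.64 and 0.443 CPM at 18 h and 1.97, 2.21 and 1.2 CPM at 22 h. Every library from 12 h on lay under every library up to 8 h. Cyp2a5 fell by 2.69 ± 0.48 (adjusted p = 0.0254), with up to 205 counts in a fed library and 4 to 50 counts in the late ones. Cyp2f2 read 4.57, 2.99 and 6.55 CPM at 0 h, 1.23, 1.21 and 1.33 CPM at 18 h and 1.11, 0.829 and 1.03 CPM at 22 h, with no overlap between fed and late mice. It fell by 2.08 ± 0.4 (adjusted p = 0.0244).

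Cyp2g1, the steroid hydroxylase, read 6.11, 4.31 and 3.02 CPM at 0 h, 1.84, 0.836 and 0 CPM at 18 h and 0.492, 0.484 and 0.457 CPM at 22 h, from at least 35 counts in each fed library and 0 to 18 counts late. Fed and late libraries did not overlap, and the 0 in 18 h replicate 3 allows up to 0.333 CPM. Cyp2g1 fell by 2.77 ± 0.59 (adjusted p = 0.0372). DESeq2 called Cyp2a5 and Cyp2f2 and gave no adjusted p for Cyp2g1. The same 3 genes were the members that passed the joint test in OB, at adjusted p = 0.0118 for Cyp2a5, 0.00571 for Cyp2f2 and 0.0181 for Cyp2g1, against 15.4% of all genes. The most abundant members of the bulb, Cyp2j6, Cyp2j9 and Cyp4f15, read 33.8 to 52.4, 22 to 34.2 and 15.2 to 20.2 CPM over the fed and late libraries, with both groups overlapping.

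Some genes of the olfactory mucosa were lower too. A list of 10 genes of mucosal glands and supporting cells, chosen after the data were seen, was tested in full: 4 were called lower (Acsm4, Bpifb3, Muc5b and Scgb1c1) and the median was -3.06, beside -0.01 over all genes. Their summed level, led by Obp1a, was 93.8, 39.1 and 97.1 CPM at 0 h, 25.8, 17 and 45.5 CPM at 2 h, 17, 19.3 and 110 CPM at 8 h, 2.44, 2.84 and 9.52 CPM at 12 h, 6.74, 84.6 and 10.1 CPM at 18 h and 3.32, 6.01 and 4.97 CPM at 22 h. The 84.6 CPM in 18 h replicate 2 are mostly Obp1a and Obp2a, at 32.5 and 49 CPM. The other 8 genes sum to 3.06 CPM in that library, beside 39, 20.7 and 20.9 CPM at 0 h and 1.94 to 6.23 CPM in the other late libraries. Cyp2a5, at 4.64 CPM, is there the highest of the late libraries, while Cyp2f2, at 1.21 CPM, and Cyp2g1, at 0.836 CPM, are not. DESeq2 passed 0 of the 10. Of 5 sensory neuron genes edgeR passed 0, with 1 at an unadjusted p under 0.05 and 0 in DESeq2, and their sum, led by Omp, was 770, 606 and 203 CPM at 0 h and 349 to 720 CPM late. The hepatocyte sum was 345 CPM in 0 h replicate 3, led by Ttr, and at most 10.8 CPM in the other OB libraries. The same sum ran from 447 to 1300 CPM in BRN, 654 to 5160 CPM in CBL and 24.6 to 3530 CPM in BST, so it was not particular to liver. Its source in OB was not tested. In OB 0 h replicate 3 Cyp2a5 lay between the other fed mice, Cyp2f2 was the highest of them and Cyp2g1 the lowest. The part of mucosal RNA in these changes was not tested.

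Lane is the other value that moves with the group. The fed OB libraries were all run on lane 3 and the late ones on lane 4, so no value within a lane can be had, and with lane as a covariate the 3 genes stood at -2.21, -1.62 and -3.7 with adjusted p = 0.544, 0.546 and 0.536. The 8 h library of the later lane, replicate 3, read 7.66, 4.3 and 3.92 CPM for Cyp2a5, Cyp2f2 and Cyp2g1, beside 6.75 and 14.8, 2.29 and 9.65, and 2.6 and 1.49 CPM on the earlier lane. At 22 h alone no member was called in OB, and the calls also rest on single libraries. Without 0 h replicate 1, 22 h replicate 1 or 22 h replicate 3 the count was 0, without 0 h replicate 2 it was 1 (Cyp2f2) and without 18 h replicate 1 it was 1 (Cyp2g1), while the log2 fold changes stayed between -3.02 and -2.46 for Cyp2a5, -2.31 and -1.79 for Cyp2f2 and -3.28 and -2.47 for Cyp2g1.

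**Figure D4:**
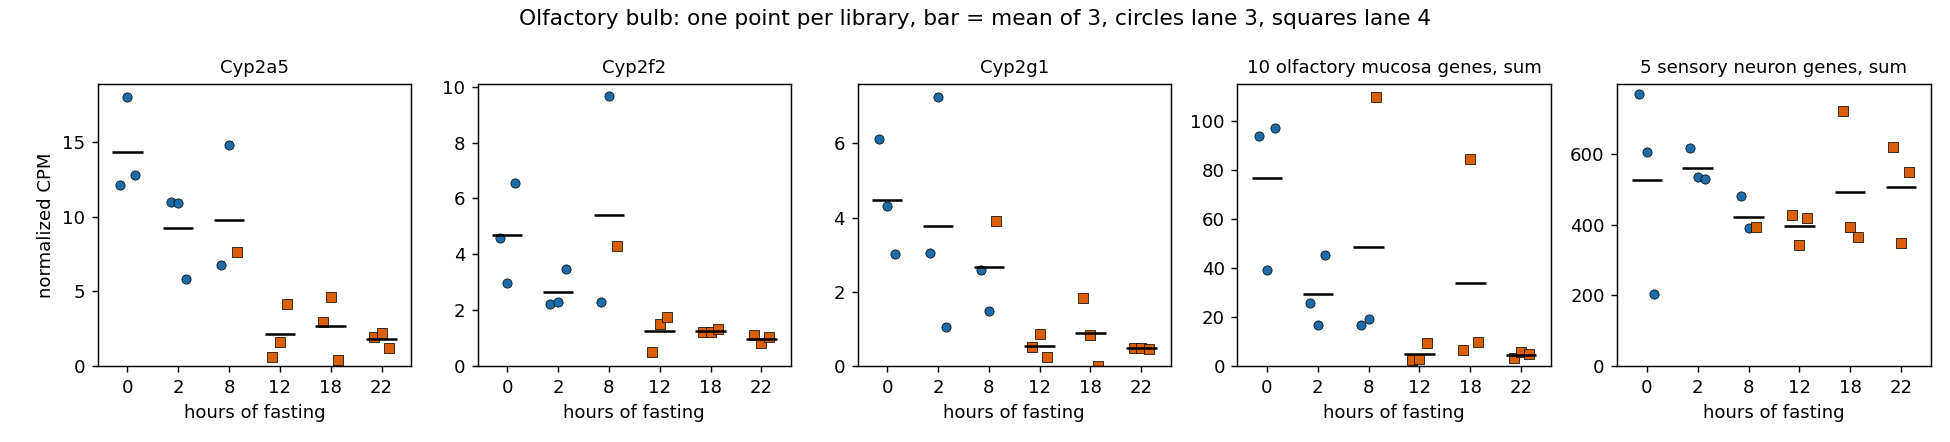
Normalised CPM in every OB library against hours of fasting for Cyp2a5, Cyp2f2 and Cyp2g1 and for the summed levels of 10 olfactory mucosa genes and 5 sensory neuron genes, with bars for the mean of 3 mice and circles and squares for lanes 3 and 4. Cyp2a5 and Cyp2f2 are lower in every library from 12 h on, at 0.443 to 4.64 and 0.506 to 1.75 CPM. Cyp2g1, at 0 to 1.84 CPM from 12 h on, overlaps with its 2 and 8 h libraries. The mucosa sum is low from 12 h on except for 84.6 CPM in 18 h replicate 2, of which Obp1a and Obp2a make up 32.5 and 49 CPM.

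RefSeq windows were at hand for Cyp2a5 and Cyp2f2 of these genes and are shown because both genes were called in the bulb. Cyp2a5 (chr7:26835089-26835388, plus strand, GRCm38.p6) holds a TATA box, in capitals, and Cyp2f2 (chr7:27119705-27120004, plus strand) holds none of the letters searched. Cyp2g1 lies beside Cyp2a5, at chr7:26808892-26821205 of GRCm38, and Cyp2f2 less than a megabase away.
Cyp2a5: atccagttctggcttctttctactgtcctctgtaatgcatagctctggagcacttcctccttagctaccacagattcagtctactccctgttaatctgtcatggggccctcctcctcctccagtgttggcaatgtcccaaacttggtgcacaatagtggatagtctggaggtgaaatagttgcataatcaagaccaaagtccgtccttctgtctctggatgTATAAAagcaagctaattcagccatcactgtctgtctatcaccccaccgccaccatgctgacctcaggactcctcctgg
Cyp2f2: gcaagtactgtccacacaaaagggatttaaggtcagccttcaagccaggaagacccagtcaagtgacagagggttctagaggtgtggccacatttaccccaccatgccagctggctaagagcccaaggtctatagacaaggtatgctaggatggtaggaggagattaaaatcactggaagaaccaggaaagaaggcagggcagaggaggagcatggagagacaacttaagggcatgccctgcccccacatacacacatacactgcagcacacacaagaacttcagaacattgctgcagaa

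The stomach joins a squamous forestomach and a glandular part, and fasting stops the intake that its glands serve. Cyp2s1 is known from such surface epithelia. The comparison asks which members differed at 18 and 22 h. Of 30 members tested 4 were called, 2 higher and 2 lower, against 7.09% of all genes tested, and the joint test passed 1, Cyp2d22, against 6.55%. DESeq2 called 6: these 4, Cyp2c65 and Cyp2d26.

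Cyp2d22 read 6.24, 7.5 and 5.74 CPM at 0 h, 24.4, 12.7 and 21 CPM at 18 h and 19.2, 12.5 and 19.8 CPM at 22 h. Every late library lay above every fed one, with replicate 2 of each time the lowest. Cyp2d22 rose by 1.48 ± 0.28 (adjusted p = 0.0052). Cyp2j6, an intestinal relative of the arachidonic acid epoxygenases, read 91, 63.2 and 120 CPM at 0 h, 28.8, 48.6 and 30.9 CPM at 18 h and 55.9, 57.2 and 22 CPM at 22 h. All late libraries lay under the lowest fed one, by little in 22 h replicates 1 and 2. It fell by 1.18 ± 0.26 (adjusted p = 0.00945).

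The epoxygenase Cyp2c44 read 12.6, 9.5 and 11.8 CPM at 0 h, 4.98, 5.14 and 2.23 CPM at 18 h and 8.6, 5.01 and 2.94 CPM at 22 h, without overlap, and fell by 1.25 ± 0.32 (adjusted p = 0.0174). Cyp4f17 read 1.6, 2.43 and 0.589 CPM at 0 h, 4.61, 2.9 and 3.39 CPM at 18 h and 4.75, 4.21 and 5.75 CPM at 22 h, again without overlap, and rose by 1.42 ± 0.42 (adjusted p = 0.0316). The most abundant members were steadier or more scattered: Cyp2s1 read 419 to 495 CPM fed and 287 to 681 CPM late (log2 change -0.09), and Cyp2f2 21.06 to 79.07 and 10.39 to 140.58 CPM (1.07). Cyp2c65 read 112.01, 90.79 and 164.39 CPM at 0 h, 16.07, 79.09 and 17.43 CPM at 18 h and 89.42, 38 and 17.11 CPM at 22 h, under the lowest fed mouse in all 6 late libraries, and at -1.53 ± 0.51 did not pass (adjusted p = 0.0586).

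Tissue markers differed between the same libraries. Of 9 stomach epithelium genes 4 were called lower, with a median of -1.4, and their summed level, led by Pgc, was 244000, 160000 and 280000 CPM at 0 h, 138000, 109000 and 137000 CPM at 18 h and 153000, 183000 and 88600 CPM at 22 h. Of 6 pancreatic acinar genes 5 were called lower, with sums of 258.8, 135.8 and 638 CPM fed and 20.3 to 74.7 CPM late. The sum of 8 skeletal muscle genes was 2020, 1620 and 339 CPM fed and 2420 to 4480 CPM late, with a median of 1.44, where edgeR passed 0 of them, with 1 at an unadjusted p under 0.05 and 1 passing in DESeq2. Of 8 mesenchymal genes 1 was higher by adjusted p, and their sum was 2970, 3080 and 2450 CPM fed and 2190 to 5630 CPM late. The keratinocyte sum was 3660, 11200 and 3680 CPM fed and ran from 1190 to 14500 CPM late. STM 18 h replicates 1 and 3 were close to each other in their whole profile, with Cyp2d22 at 24.4 and 21 CPM in them. The part of these differences in the P450 values was not tested. Liver members such as Cyp2e1, at 120 CPM, and Cyp3a11, at 22.5 CPM, were highest in 12 h replicate 2, the library with the highest hepatocyte sum. The fed library 0 h replicate 3, with the next sum, held 210 counts of Cyp2e1 and 67 of Cyp3a11. Fed replicates 1 and 2 held 128 and 22 of Cyp2e1 and 13 and 63 of Cyp3a11.

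The stomach calls depend on lane and on single libraries. With lane as a covariate none of the 4 passed, at -0.31 for Cyp2c44, 1.43 for Cyp2d22, -0.92 for Cyp2j6 and 1.97 for Cyp4f17 (adjusted p = 0.936, 0.725, 0.748 and 0.725). Without 0 h replicate 3 the count was 1 (Cyp2d22), without 0 h replicate 1 it was 2 (Cyp2d22 and Cyp2j6), and without 18 h replicate 2 it was 7; the Cyp4f17 call was also lost without 18 h replicate 1 (adjusted p = 0.0635), 18 h replicate 3 (0.0508) or 22 h replicate 3 (0.053). Cyp2d22 kept its call without any single library, at 1.39 to 1.6. At 22 h alone no member was called in STM, Cyp2d22 included. Under the alternatives other than leaving out a library, the log2 fold change of Cyp2d22 ran from 1.4 to 1.63. Without TMM factors the median over all genes shifts from 0 to 0.15 and the share of called genes that are higher from 48.2% to 70%, while 2 members rose and 2 fell as before.

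Brown fat burns fatty acids for heat, and fasting slows it. Cyp2e1 and Cyp2b10 lead among its P450s, and Cyp1a1, the main target of the aryl hydrocarbon receptor, is highest here of the 9 organs. At 18 and 22 h 1 of 15 tested members was called, against 9.6% of all genes. Cyp2e1 read 101.1, 184.3 and 159.4 CPM at 0 h, 265.6, 448.9 and 281.6 CPM at 18 h and 247.2 and 410.4 CPM in the 2 libraries at 22 h. All late libraries were above all fed ones. Cyp2e1 rose by 1.16 ± 0.38 (adjusted p = 0.0416). At 12 h it read 244.6, 318.1 and 249.1 CPM and at 8 h 85.03, 108.9 and 108.8 CPM, while at 2 h replicate 3 stood out with 380 CPM.

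The call was lost in 7 of 8 fits that left out a library: the adjusted p was 0.133, 0.103 and 0.0774 without 0 h replicate 1, 2 or 3, 0.0776 and 0.0539 without 18 h replicate 2 or 3, and 0.0564 and 0.0869 without 22 h replicate 2 or 3, with log2 fold changes of 0.93 to 1.33. At 18 h alone and with no filter on low counts the call was lost too, with log2 fold changes within 1.07 to 1.28. Adipocyte genes stood higher in the late libraries: 4 of 8 passed the adjusted p upward with a median of 0.55. Their sum, led by Fabp4, was 20700, 16900 and 18400 CPM fed, 20900, 24400 and 23100 CPM at 18 h and 38500 and 32100 CPM at 22 h. Endothelial genes stood lower, 5 of 8 by adjusted p with a median of -0.85 and sums of 993, 1340 and 642 CPM fed against 526 to 701 CPM late. The share of all genes passing the adjusted p alone in this comparison is not given here, so both counts are a description only. The part of adipocyte and endothelial genes in the Cyp2e1 change was not tested. Without TMM factors the all-gene median moves from -0.07 to 0.07 and the share of called genes that are higher from 26.2% to 46%.

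Shorter fasts changed other members of brown fat. At 2 h against 0 h 1 member was called against 0.227% of all genes: Cyp2b10, the classic target of the androstane receptor, read 14.1, 18.5 and 15.2 CPM at 0 h and 35.1, 119.7 and 117.2 CPM at 2 h, all above the fed mice, and rose by 2.51 ± 0.4 (adjusted p = 0.013). It then read 33, 21.1 and 16.2 CPM at 8 h, 82, 55.4 and 47 CPM at 12 h, 12.6, 15.7 and 22.6 CPM at 18 h and 45.5 and 56 CPM at 22 h, and the times overlap in part. Each time was a separate group of mice, and the joint test over the times gave the lowest adjusted p of the 4 members that passed it, 0.000588, against 29% of all genes. The others were Cyp1a1 (0.0146), Cyp2e1 (0.0277) and Cyp2f2 (0.0407).

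Cyp1a1, chosen after its values were seen, read 22, 27.3 and 8.11 CPM at 0 h, 6.55, 4.01 and 6.66 CPM at 8 h and 9.48, 5.98 and 4.02 CPM at 12 h, with 12 h replicate 1 above the lowest fed mouse. At 8 and 12 h it was the 1 member called, against 0.551% of all genes, and fell by 1.65 ± 0.37 (adjusted p = 0.0469). At 18 h it read 8.84, 30.2 and 27 CPM and at 22 h 9.23 and 11.3 CPM, and at 18 and 22 h against 8 and 12 h it was again the 1 member called, against 6.62% of all genes, and rose by 1.3 ± 0.35 (adjusted p = 0.0171). Without TMM factors the call at 8 and 12 h was lost, the all-gene median moved from -0.01 to 0.13 and the share of called genes that are higher from 18.8% to 42.9%. The endothelial sum was 993, 1340 and 642 CPM at 0 h, 451 to 915 CPM at 8 and 12 h and 526 to 701 CPM late. Its part in the Cyp1a1 values was not tested. The calls of Cyp1a1 and Cyp2b10 were not repeated with libraries left out, and the fit with lane as a covariate could not be run in iBAT.

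White fat is where fasting draws most of its fuel, and its P450 mRNA is mainly Cyp2e1. In pgWAT edgeR called 0 of 27 members at 18 and 22 h, against 0.00609% of all genes, and DESeq2 called 2, Cyp2a5 and Cyp2g1. The 6 at an unadjusted p under 0.05, with no share over all genes beside them, are a description only. Cyp2e1 read 4860, 4440 and 4390 CPM at 0 h, 5490, 7890 and 3860 CPM at 18 h and 9600, 622 and 5690 CPM at 22 h, with the 622 CPM in the library that is also low in adipocyte genes. Cyp2a5 read 0.518, 0.154 and 0.0597 CPM at 0 h, 0.73, 39 and 1.89 CPM at 18 h and 5.45, 4.42 and 8.37 CPM at 22 h. The 39 CPM is in 18 h replicate 2, the library with hepatocyte transcripts, where Cyp3a11 also read 110.9 CPM. Cyp2g1 had 0 counts in all fed libraries and 1 to 27 counts late. These values also differ between lanes within a time. At 12 h Cyp2a5 read 0 CPM on lane 5 and 5.03 and 9.21 CPM on lane 6, and Cyp2g1 0 CPM on lane 5 and 2.03 and 3.48 CPM on lane 6; at 8 h Cyp2a5 read 5.03 CPM on lane 7 and 0.154 and 0 CPM on lane 5. The part of lane in the late values was not tested. Without TMM factors the all-gene median moves from 0.05 to -0.06 and the genes called in pgWAT from 0 higher and 1 lower to 3 higher and 64 lower, with 0 members among them in both fits.

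In psWAT edgeR called 0 of 18 members against 0% of all genes, with 0 at an unadjusted p under 0.05 and 0 called by DESeq2. Cyp2e1 there ran from 57.4 to 2920 CPM and Cyp4f18 from 8.63 to 134.7 CPM over 17 libraries. The lowest Cyp2e1 and the highest Cyp4f18 were both in 22 h replicate 1, the library with the lowest adipocyte sum, 891 CPM, and the highest lymphocyte sum, 3080 CPM.

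The brain regions behind the bulb hold few P450s, with Cyp2j and Cyp2d genes in the lead. At 18 and 22 h edgeR called 0 of 17 members in BRN against 5.14% of all genes, 0 of 17 in CBL against 0.0689% and 0 of 16 in BST against 0.00596%. At an unadjusted p under 0.05 stood 2, 5 and 6 members, a description only, because the share over all genes is not given here. DESeq2 called 1, Cyp2f2, in BRN and 0 in CBL and in BST. In BRN, Cyp2f2 read 0.0932 to 0.523 CPM at 0 h, 6.25 and 1.35 CPM at 18 h and 1.32, 0 and 2.45 CPM at 22 h, with the 6.25 CPM, 17 counts, in the library least like the others, and its change of 2.77 ± 1.1 did not pass (adjusted p = 0.102). Without BRN 18 h replicate 3 the count was 2, Cyp2d22 and Cyp2f2. In BRN the median over all genes moves from -0.09 to -0.26 without TMM factors, and the share of called genes that are higher from 73.3% to 47.7%.

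Cyp2j9, called in liver and tested in all organs, was also compared between organs, with libraries of a time joined by replicate number. The values do not show that a number stands for 1 mouse in all organs: in LIV 1 of 18 libraries matched its own number best. Cyp2j9 was chosen for its call in LIV, and the same LIV values enter every pair. The p-values below take in that choice and rest on the joining by number, so the differences are a description. For each replicate number of a time the log2 level in another organ, with a pseudocount of 0.5 CPM, was subtracted from that in LIV. Late values were compared with fed ones by an exact permutation test, two-sided, adjusted over 8 organ pairs. The change in LIV was 1.13, against 0.04 in OB, 0.19 in CBL, -0.05 in BST and -0.3 in pgWAT, differences of 1.1, 0.94, 1.18 and 1.43 (exact permutation p = 0.0119, the smallest that 3 against 6 mice allow, adjusted p = 0.0238 each). Against iBAT, with a change of -0.48, the difference was 1.62 (exact permutation p = 0.0179, the smallest 3 against 5 mice allow, adjusted p = 0.0286), and against psWAT, with -0.44, it was 1.55 (exact permutation p = 0.0357, adjusted p = 0.0476).

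Against BRN and STM, where Cyp2j9 stood at 0.43 and 0.48, the differences of 0.66 and 0.65 did not pass (exact permutation p = 0.196 and 0.107, adjusted p = 0.196 and 0.122). In CBL, where its level is nearest to that of liver, Cyp2j9 read 27.1, 22.7 and 33.2 CPM in the fed mice and 26.8 to 37.1 CPM late, with partial overlap. The count of 6 passing pairs was 0 without 0 h replicate number 1, 2 or 3, where a pair could pass only if all 8 reached the smallest p that 2 fed values allow. It was between 4 and 7 without a late replicate number. Fed and late libraries lay on different lanes in LIV, which is in every pair, and also in OB, STM and pgWAT. At 8 h Cyp2j9 in LIV read 30.5 and 28.7 CPM on the lane of the fed mice and 23.3 CPM on that of the late ones.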

How the data were processed

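The deposited values are raw read counts per gene symbol: the authors aligned stranded paired reads to the mouse genome (GRCm38.p5) with TopHat2 2.1.1 and counted uniquely placed reads on Gencode M16 genes with HTSeq 0.9.1. The members and gene lists were chosen with earlier results of these data known. For each organ, genes at a CPM equal to 10 counts in the median library in at least 3 libraries were fitted over the 6 times with edgeR 4.0.16 (TMM factors, robust quasi-likelihood F test, R 4.3.3), and p was adjusted by the Benjamini-Hochberg method over all genes of the organ. A call needs an adjusted p under 0.05 and a log2 fold change beyond 1 in size; the joint test of the times needs the adjusted p alone. DESeq2 1.42.0 (Wald test) was the other tool. All adjusted p values in the text are from edgeR unless DESeq2 or a permutation is named. Both tools were tested on simulated data with 200 changed genes. Exon lengths and positions are from Gencode M21.

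Genes named by rule are the members called in LIV in the comparisons over 2 times and the 10 highest per kb there, in each other organ the 3 highest and those called at 18 and 22 h, and Ahr, Nr1i2, Nr1i3, Por and Alas1. Alternatives were the tool, scaling, filter, call rule, libraries, times in the fit, lane, replicate block and leaving out each library. Libraries of the same replicate number deviated together with median correlations of -0.17 to 0.1 by organ, and the numbers were not taken to pair samples in the main fits. The comparison of Cyp2j9 between organs did join libraries by this number. The highest median was that of iBAT, 0.1 against -0.06 for other numbers. There 20 of 40 same-number pairs were over 0.1, and 11 of 17 libraries matched their own number best. Counts with the replicate number as a block are given below. The 5 libraries that the study left out hold 0.131 to 4.59 M counts. No column of the table belongs to no sample (0 such columns).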

Additional observations from a re-analysis of the deposited data

Results flagged for a closer look

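The late change of Cyp2j9 in liver stood above that in 6 other organs under an exact permutation of libraries joined by replicate number. The values do not show that this number pairs organs of a mouse. The gene was also chosen for its call in LIV, so this is no independent test of the difference. The change in LIV less that in OB was 1.1, in CBL 0.94, in BST 1.18, in iBAT 1.62, in pgWAT 1.43 and in psWAT 1.55 on the log2 scale. These 6 differences share the LIV values.

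For 4 of the 34 members tested in at least 2 organs, 11.8%, every late library lay on 1 side of every fed library in an organ and on the other side in another, a pattern of 6.27% of all genes tested in at least 2 organs. The difference between the organs was not tested for them. Cyp2a5 stood at 5.23 in pgWAT, with 39 CPM in 18 h replicate 2, the library with hepatocyte transcripts, and 0.73 to 8.37 CPM in the other late ones, and at -2.69 in OB. Cyp2g1 stood at 6.42 in pgWAT and -2.77 in OB, where the pgWAT value of Cyp2g1 is a fitted value against 0 counts that depends on the prior count. Cyp2j6 stood at 0.33 in pgWAT and -1.18 in STM, and Cyp4f17 at 1.42 in STM and -1.2 in BRN. The values in pgWAT and BRN did not pass the adjusted p. The mucosa gene sum in pgWAT was 29.6, 24.1 and 3.76 CPM fed, 12, 16.8 and 500 CPM at 18 h and 23.6, 291.5 and 154.6 CPM at 22 h, and its part was not tested.

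The 5 libraries that the study left out hold some members above the limit of 3 counts and above every kept library of the organ: 1 in BRN 8 h replicate 3 (Cyp2j9), 3 in BRN 18 h replicate 1 (Cyp2j9, Cyp4f18 and Cyp4x1), 3 in STM 12 h replicate 3 (Cyp2c44, Cyp2u1 and Cyp4f13), 3 in iBAT 22 h replicate 1 (Cyp2j6, Cyp2j9 and Cyp2t4) and 2 in psWAT 22 h replicate 2 (Cyp4f13 and Cyp4f18). The BRN libraries hold 0.131 and 0.28 M counts, so a level there rests on few counts.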

How the results depend on the processing

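Of 329 values under alternatives other than leaving out a library, 270 kept their direction and side of the threshold, or stayed within 1.5 times the count, and of 320 leave-out values 253 did. Of those that did not, the counts of called members and the sign changes are given below by value and the other values of single members by number; the cause was not tested.

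With no filter on low counts the called members numbered 5 in OB (3 with it), 5 in LIV at 18 and 22 h (3), 2 in LIV at 18 and 22 h against 8 and 12 h (0), 0 in iBAT (1) and 27 in the LIV joint test (15), where more genes are tested. With the adjusted p alone LIV held 9, 6 and 3 members at 18 and 22 h, at 8 and 12 h, and between them. With lane as a covariate the count was 0 in OB, STM and LIV at 18 and 22 h and 1 in LIV at 8 and 12 h; the lane fit of iBAT could not be run. At 18 h alone the count was 5 in LIV and 0 in iBAT, and at 22 h alone 0 in OB, 0 in STM and 2 in iBAT. DESeq2 called 1 in BRN and 2 in pgWAT where edgeR called 0. DESeq2's size factors in edgeR, all 18 libraries, fits of the compared times alone and, chosen after seeing the data, library sizes without factors and fits without the libraries that stand apart kept each count within 1.5 times, apart from single calls given beside the results. Lane in OB and STM and the single times in OB were also chosen after seeing the data.

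Leaving out each library in turn gave 0 to 3 called members in OB, 0 to 2 in BRN, 1 to 7 in STM, 2 to 5, 0 to 1 and 0 to 1 in the LIV comparisons named above, 12 to 19 in the LIV joint test, 0 to 1 in iBAT and 0 to 0 in CBL, BST, pgWAT, psWAT and LIV at 2 h. The Cyp2j9 pairs passing numbered 0 to 7, with 0 only when a fed replicate number was left out. There 2 fed values let a pair pass only if all 8 reach their smallest p, so these 0s do not bear on stability.

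With the replicate number as a block, the counts were 3 in OB, 5 in STM, 3 in LIV at 18 and 22 h, 14 in the LIV joint test, 1 in iBAT and 0 in the others; the block changed no count by more than 1.5 times.

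Of 218 values of single named members under the alternatives other than leaving out a library, 178 kept sign and side of the threshold, 29 lost a call (1 of them with no p from DESeq2), 3 gained one and 8 changed sign. On leaving out a library 36 lost a call, 0 gained one and 9 changed sign. All sign changes are of members within 0.03 of 0 in LIV. Cyp2a12 (0.03) was -0.01 with lane, -0.05 at 18 h alone and -0.03 to 0.09 leaving out a library; Cyp2d10 (0.01) was -0.09, -0.09 and -0.04 to 0.05; Cyp2d9 (0.01) was -0.1, -0.24 and -0.04 to 0.06. Cyp3a25 (0.03) was -0.06 with lane, -0.07 at 22 h alone and -0.1 to 0.12 leaving out a library.

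Depth limits the low members: 10 counts in a median LIV library of 8.64 M counts is the least level tested, and Cyp2d11 rests on 6 to 36 counts per library in the groups compared.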
